A study of Mus musculus with 12 samples.

Results

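The nuclei described here are 1422 mesothelial nuclei out of 106898 kept nuclei (1.33%) from 12 single-nucleus RNA libraries of mouse adipose tissue. Members were chosen by the unique molecular identifiers (UMIs, counts of captured RNA molecules) of 7 genes: Msln, Upk3b, Upk1b, Muc16, Wt1, Lrrn4 and Bnc1. A member had at least 3 UMIs of these genes together and at least 2 of the genes seen. It also had 0 UMIs of the epithelial genes Epcam and Upk3a. Its 7-gene sum was above the sum of 7 genes of other cell types, namely Adipoq, Plin1, Acsl1, Flt1, Lama2, Mrc1 and Ptprc. A nucleus was kept when 300 or more genes were seen in it and mitochondrial UMIs were 10% or less of its total. Of the members, 1132 (79.6%) came from the lPRAT depot. Without members that held a UMI of a urothelial marker, which are described below and lie mainly in mPRAT, 1313 remain.

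Nuclei were taken from male C57BL/6J mice on chow, stained with 7-AAD and sorted, and each of the 12 groups held 1 library. The groups used most are lPRAT at 2 months and lPRAT at 6 months, both at room temperature (22 °C). The others named are mPRAT at 1, 2 and 6 months at room temperature, mPRAT at 6 months after 3 days at 4 °C, and 6 libraries of iBAT and iWAT. Those 6 are iBAT at 1, 2 and 6 months and iWAT at 6 months, all at room temperature, and iBAT and iWAT at 6 months after 3 days at 4 °C. The labels do not spell out these abbreviations. PRAT usually stands for perirenal fat, here lateral (l) or medial (m), iBAT for the brown fat between the shoulder blades and iWAT for white fat of the groin. The titles and the age field of the labels differ for the oldest animals, with 6 months in the title against 16 weeks in the age field. The 2-month libraries are given as 8 weeks in that field. Ages below follow the titles. The labels do not give the number of animals per library, and no genotype other than the strain is named. Any difference between a pair of libraries therefore has no replicate check, and the exact 95% intervals below cover counting error only.

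Mesothelium is the thin epithelium that lines the body cavities and covers the organs and fat pads that face them. It carries keratins and tight junctions, lies on a basement membrane and makes hyaluronan and lubricating surface proteins. It arises from coelomic epithelium, where Wt1, a zinc-finger transcription factor, is a classical marker. Msln encodes mesothelin, a surface glycoprotein that binds the large mucin made from Muc16. Upk3b and Upk1b encode uroplakin family proteins, and Bnc1 encodes the zinc-finger factor basonuclin.

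The 250 bases before the annotated start of Upk3b and Lrrn4, a pair of the genes that define the members, are shown first because both hold the letters of a TEAD motif, GGAATG on either strand. They were taken from RefSeq on build GRCm38.p6, at chr5:136038246-136038495 on the plus strand and chr2:132880863-132881112 on the minus strand. Capitals mark the motif, and each is written 5′ to 3′ along the gene.

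Upk3b: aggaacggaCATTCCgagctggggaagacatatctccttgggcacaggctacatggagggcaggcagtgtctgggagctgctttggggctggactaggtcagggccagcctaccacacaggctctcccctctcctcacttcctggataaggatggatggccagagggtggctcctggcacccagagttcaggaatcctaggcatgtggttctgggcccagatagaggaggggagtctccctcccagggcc
Lrrn4: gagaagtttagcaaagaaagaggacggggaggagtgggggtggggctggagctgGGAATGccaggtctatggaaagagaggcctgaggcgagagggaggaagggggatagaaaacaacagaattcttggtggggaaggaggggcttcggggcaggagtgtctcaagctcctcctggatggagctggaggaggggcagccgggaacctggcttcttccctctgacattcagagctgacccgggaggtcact

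Among 32851 mouse promoter windows of this length, 12.6% held GGAATG. The windows of Bnc1 and Muc16 did not hold it. A match describes letters and not binding.

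Mesothelial nuclei were found in both lPRAT libraries and in all 4 mPRAT libraries, and in none of the iBAT and iWAT libraries. In lPRAT at 2 months, 158 of 3279 kept nuclei were members (4.82%, exact binomial interval 4.11 to 5.61%). In lPRAT at 6 months, 974 of 5966 were members (16.3%, 15.4 to 17.3%). The difference between these libraries was 11.5 percentage points (10.3 to 12.7). The mPRAT libraries held 36 members at 1 month (0.668%), 90 at 2 months (1.46%), 80 at 6 months (0.701%) and 84 at 6 months after cold (2.22%) that met the rule. Without members with a urothelial UMI these were 34 (0.631%), 48 (0.780%), 75 (0.657%) and 33 (0.873%). In iBAT and iWAT, 0 of 70913 nuclei met the rule, which allows a share of up to 0.00423%.

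**Figure D1:**
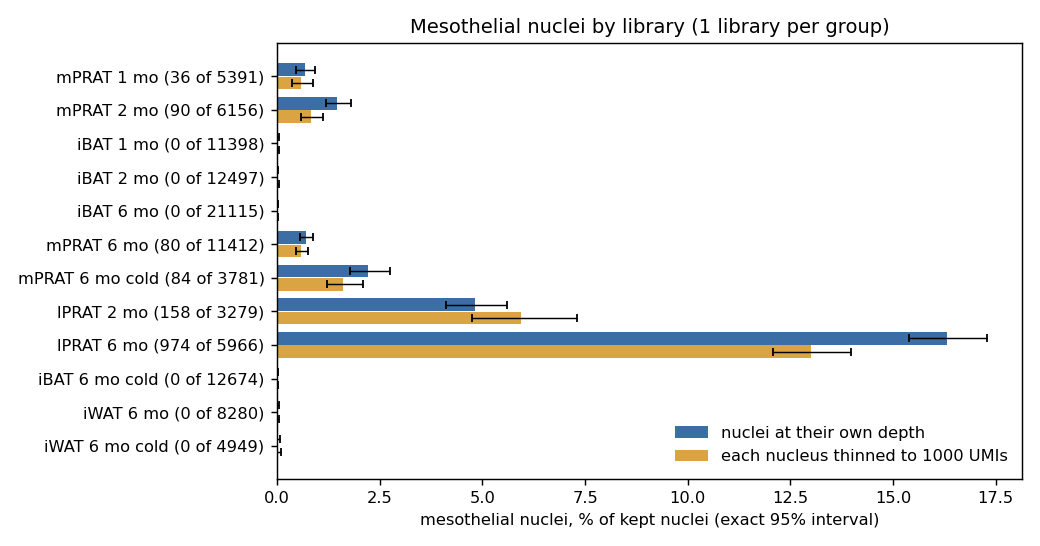
Share of kept nuclei that met the mesothelial rule in each of the 12 libraries, as a percentage on the x axis, with exact 95% binomial intervals as error bars. Blue bars use each nucleus at its own depth and yellow bars use nuclei thinned to 1000 UMIs, and lPRAT at 6 months is the highest library on both scales, with 16.3% and 13%.

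The lPRAT libraries differed in depth and quality, and these values stand beside the share. Total UMIs were 5461133 at 2 months, the lowest of the 12 libraries, and 26529576 at 6 months, within a range up to 87035783. Median UMIs per kept nucleus were 880 and 2547. After each nucleus was thinned to 1000 UMIs, with 1897 and 1066 shallower nuclei left out, 82 of 1382 nuclei (5.93%) at 2 months and 637 of 4900 (13%) at 6 months were members. The thinned difference was 7.07 points (5.4 to 8.60). Of nuclei with enough genes, 21.4% at 2 months and 5.29% at 6 months lay over the mitochondrial limit and were not counted. No member barcode was shared between the member sets of any libraries. The lPRAT libraries shared 9 kept barcodes. Doublets were not removed, because the scrublet method's own threshold marked 1 of 4170 nuclei (0.0240%) at 2 months, too few to have worked, against 143 of 6299 (2.27%) at 6 months. Under an assumed doublet rate of 0.8% for each 1000 nuclei scored, 5 of 158 and 23 of 974 members would be removed.

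Nuclei just outside the rule, with 2 UMIs of the 7 genes, numbered 57 at 2 months and 69 at 6 months. Their level of Gpm6a, a neuronal-type membrane glycoprotein not used in the rule, was 1527 CPM and 1524 CPM, where CPM is UMIs per 1000000 UMIs of the summed nuclei. Nuclei just inside, with 3 UMIs, numbered 37 and 89 and held 2361 and 2046 CPM. Nuclei on both sides of the threshold thus held Gpm6a.

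Genes used by the rule are given as a description. Muc16 stood at 1127 CPM at 2 months (exact Poisson interval 1032 to 1229) and 2251 CPM at 6 months (2196 to 2307). Wt1 stood at 1036 CPM (945 to 1133) and 1100 CPM (1062 to 1140), with overlapping intervals. Msln stood at 128 and 190 CPM, Upk3b at 239 and 323 CPM, Upk1b at 479 and 572 CPM and Bnc1 at 196 and 205 CPM. Lrrn4 was the only rule gene with a lower value at 6 months, 86.2 against 144 CPM. Wt1 was seen in 77.8% of members at 2 months and 85.7% at 6 months, and Muc16 in 76.6% and 88.8%.

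Genes outside the rule that are known from mesothelium were seen in the lPRAT members. Levels in members were set beside those in adipocyte nuclei (716 at 2 months and 1774 at 6 months, chosen by Adipoq, Plin1 and Acsl1) and progenitor nuclei (172 and 428, chosen by Pdgfra, Dcn, Lama2 and Fbn1). These comparators had 0 UMIs of the 7 rule genes. Gpm6a stood at 3329 CPM in members at 6 months, against 4.13 CPM in adipocyte and 18.5 CPM in progenitor nuclei. At 2 months the values were 2357, 16.5 and 16.1 CPM. The keratin gene Krt19 stood at 91.4 CPM in members at 6 months against 0.570 and 2.46 CPM, and at 120 CPM against 3.31 and 0 CPM at 2 months. Its level in members was 90.7 CPM at 6 months and 56.5 CPM at 2 months when members over 10000 UMIs were left out, so the order of the ages turned. Rspo1, a secreted amplifier of Wnt signalling, stood at 357 CPM against 0.997 and 7.38 CPM at 6 months. Aldh1a2, which makes retinoic acid, stood at 160 CPM against 0.926 and 1.23 CPM. Calb2, which encodes the mesothelial marker calretinin, had 0 UMIs in members at both ages. Without members over 10000 UMIs, the keratin genes Krt8 and Krt18 stood at 11.3 and 8.47 CPM at 2 months. At 6 months these keratin genes stood at 13.2 and 17.9 CPM.

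**Figure D2:**
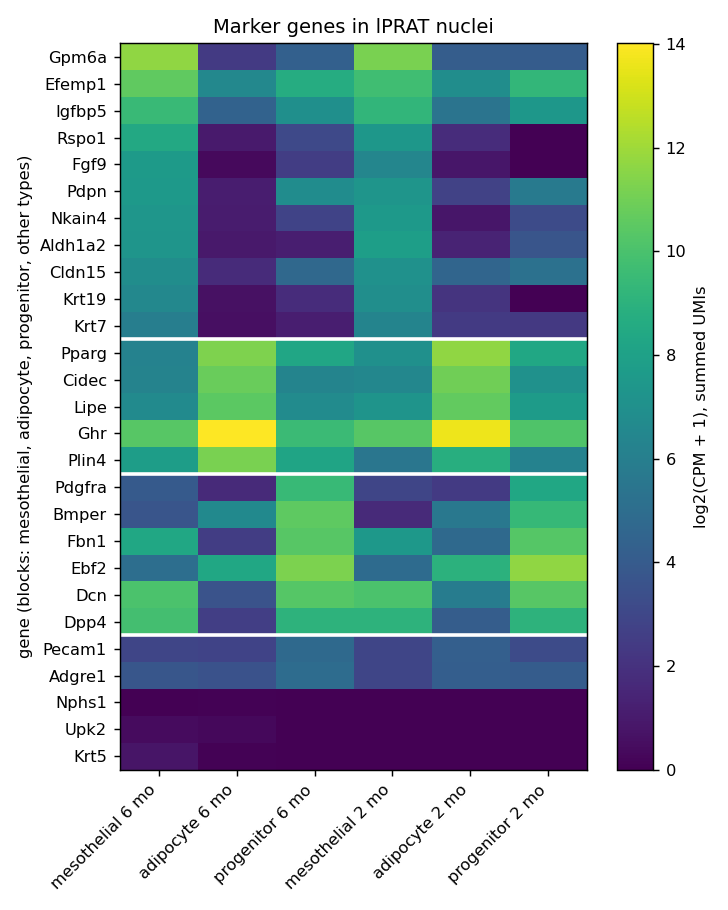
Levels of marker genes as log2(CPM + 1) of summed UMIs (colour) in mesothelial, adipocyte and progenitor nuclei of lPRAT at 6 and 2 months (columns). The blocks show a selection of genes, and the mesothelial one leaves out Calb2, Krt8 and Krt18. The mesothelial block at the top is bright in the mesothelial columns, for example Gpm6a at 3329 CPM against 4.13 CPM in adipocyte nuclei at 6 months. Nphs1, a podocyte gene, is at 0 in mesothelial nuclei, while the podocyte genes Podxl and Synpo, not shown, were seen there.

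The 15 genes that stood furthest above both comparators at 6 months encode splicing, adhesion, channel and transport proteins among others. Rbfox1, an RNA splicing factor, stood at 9496 CPM in members against 22.2 CPM in adipocyte and 24.6 CPM in progenitor nuclei. At 2 months it stood at 7596 CPM against 38.9 and 88.5 CPM. Nxph1, a secreted ligand of neurexins, stood at 2485 CPM against 4.2 and 8.61 CPM at 6 months. Il1rapl1, a synaptic adhesion receptor, stood at 3967 CPM against 5.56 and 30.8 CPM. Plxna4, a semaphorin co-receptor, stood at 2343 CPM against 7.41 and 27.1 CPM. Pkhd1l1, which encodes a large membrane protein of the fibrocystin family, stood at 2381 CPM against 4.84 and 11.1 CPM. The potassium channel genes Kcnab1 and Kcnd2 stood at 1351 and 604 CPM in members, and the chloride channel gene Ano1 at 895 CPM. Each of these channel genes was under 15 CPM in both comparators at 6 months. The remaining named genes were Gpm6a, Nlgn1, Cobl, Abcb1b, Pcdh15, Myo5b and Rapgef5. All 15 were also higher in members than in both comparators at 2 months, by 3.31 or more on the log2 scale with 20 CPM added. Of all genes, 8.72% were at least 2-fold higher than in both at that age.

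Coelomic transcription factors were present. Gata4 stood at 139 CPM at 2 months and 90.7 CPM at 6 months, against 0.427 CPM or less in adipocyte and progenitor nuclei at 6 months. Gata6 stood at 274 and 262 CPM, and Bnc2, a basonuclin relative of Bnc1, at 2039 and 2254 CPM. Sox6 stood at 2344 CPM in members, 949 CPM in adipocyte and 24.6 CPM in progenitor nuclei at 6 months. Of 9 genes of this list that met the minimum for the age comparison (at least 20 UMIs over both libraries and a mean of at least 50 CPM), 0 were past 2-fold in either direction, where the shares of all genes were 1.89% higher and 1.83% lower.

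Basement membrane collagens split by chain. Col4a3, Col4a4, Col4a5 and Col4a6 stood at 91.8, 144, 518 and 683 CPM in members at 6 months, against 0.926, 1.14, 1.85 and 0.855 CPM in adipocyte nuclei. In progenitor nuclei these genes stood at 17.2, 35.7, 32.0 and 12.3 CPM. The ubiquitous chains Col4a1 and Col4a2 had the opposite order, with 61.2 and 58.4 CPM in members against 630 and 523 CPM in progenitor nuclei. The same order of members and progenitor nuclei held for all 6 genes at 2 months.

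Of 19 genes of the Wnt, BMP, FGF and IGF list that met the same minimum against either comparator at 6 months, 4 were at least 2-fold higher in members than in both comparators, 5 were at least 2-fold below adipocyte nuclei and 7 below progenitor nuclei. The all-gene shares were 7.46%, 16.2% and 10.1%. A gene seen mainly in members meets the minimum through them, so these counts are a description. Fgf1, a fibroblast growth factor, stood at 902 CPM at 6 months against 78.7 CPM in adipocyte and 22.1 CPM in progenitor nuclei. Bmpr1b, a receptor of bone morphogenetic proteins, stood at 236 CPM against 0.712 and 3.69 CPM. Of 11 genes of the complement and immune list, 5 were at least 2-fold higher than in both comparators. Il33, an alarmin cytokine, stood at 256 CPM against 0.570 and 11.1 CPM, and Cd200, an inhibitory ligand for myeloid cells, at 295 CPM against 1.99 and 14.8 CPM.

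Genes of other cell types gave the following values in members. Adipocyte genes were present at low levels, with Ghr at 1316 CPM in members against 16542 CPM in adipocyte nuclei at 6 months and Pparg at 73.5 against 2538 CPM. Among 13 adipocyte markers the summed level was 2135 CPM in members at 2 months and 2175 CPM at 6 months, against 25767 and 28033 CPM in adipocyte nuclei. Of the 7 adipocyte markers that met the minimum for the age comparison, 5 had a log2 ratio below 0, with a median of -0.17. Without members over 10000 UMIs, 6 were below 0, 3 of them past 2-fold lower, beside 52 of all 3924 genes, with a median of -0.79 and Pparg at -1.62. Plin4 went the other way, past 2-fold higher at 1.51 in that setting, beside 73 of all genes, and at 1.92 with all members. The progenitor gene Dcn, one of those that chose the progenitor nuclei, stood at 1072 CPM in members against 1271 CPM in progenitor nuclei at 6 months. Most of the 12 progenitor markers lay further apart, with a summed level of 3515 CPM in members against 10149 CPM in progenitor nuclei. At least 2-fold below progenitor nuclei were 8 of the 12, beside 10.1% of all genes. Pdgfra, Dcn and Fbn1 of this list also chose the progenitor nuclei, so this count and the summed level are a description. At least 2-fold above both comparators was 1, beside 7.46% of all genes. Of 6 podocyte markers, 2 had 0 UMIs at both ages, among them Nphs1. The 6 summed to 147 CPM in members at 6 months, against 12.9 CPM in adipocyte and 67.7 CPM in progenitor nuclei. Without members over 10000 UMIs, Podxl stood at 97.7 CPM and Synpo at 44.4 CPM at 6 months. Lrp2, the endocytic receptor megalin known from kidney tubules, stood at 178 CPM at 2 months and 412 CPM at 6 months, while the tubule marker Slc34a1 had 0 UMIs at both ages and Umod 0 and 1 UMI. The part of RNA from other cells in these levels was not tested.

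Urothelial genes marked a different mixture in mPRAT. At least 1 UMI of 7 urothelial markers, which include Upk1a, Upk2 and Krt5, was seen in 1 of 158 lPRAT members at 2 months and 8 of 974 at 6 months. In mPRAT it was seen in 2 of 36 members at 1 month, 42 of 90 at 2 months, 5 of 80 at 6 months and 51 of 84 after cold. In mPRAT at 2 months the members with such a UMI held 90.8 CPM of Gpm6a and 25.9 CPM of Wt1, against 3012 and 936 CPM in those without. Their level of Pparg, a nuclear receptor also active in urothelium, was 2533 CPM against 253 CPM. In mPRAT after cold the difference was smaller, with 1224 CPM of Gpm6a and 371 CPM of Wt1 in members with such a UMI against 3527 and 653 CPM in those without, and 29 of the 51 held Gpm6a. Pparg stood at 1400 CPM against 335 CPM there. The 5 such members of mPRAT at 6 months at room temperature held 743 CPM of Gpm6a, 41.3 CPM of Wt1 and 1651 CPM of Pparg, against 3385, 943 and 75.3 CPM in those without. The levels of Wt1 and Pparg in members with a urothelial UMI go against the mesothelial label at 2 months, at 6 months and, less far, after cold. The mPRAT gene levels given after the age comparison leave out members with a urothelial UMI.

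The comparison of lPRAT at 6 months with lPRAT at 2 months asks how mesothelial nuclei differ between the ages. Among the genes that stood higher at 6 months were Aebp1, which encodes a matrix protein, Slit3, which encodes a guidance ligand, and Slc39a8, a metal importer gene, with Fmo2 beside them. Members held 459579 UMIs at 2 months and 2843717 UMIs at 6 months in all. The minimum was met by 3924 genes. With 20 CPM added to both, 74 genes (1.89%) were at least 2-fold higher at 6 months and 72 (1.83%) at least 2-fold lower, and the median log2 ratio was 0.03. When members with over 10000 UMIs were left out, 5 at 2 months and 18 at 6 months, 65 genes were higher and 52 lower. Of the 74 and 72 genes, 50 and 32 stayed past 2-fold, and of the 12 genes with the most extreme ratios in each direction, 12 and 7 did. With members thinned to 1000 UMIs each, 139 genes were higher and 69 lower.

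**Figure D3:**
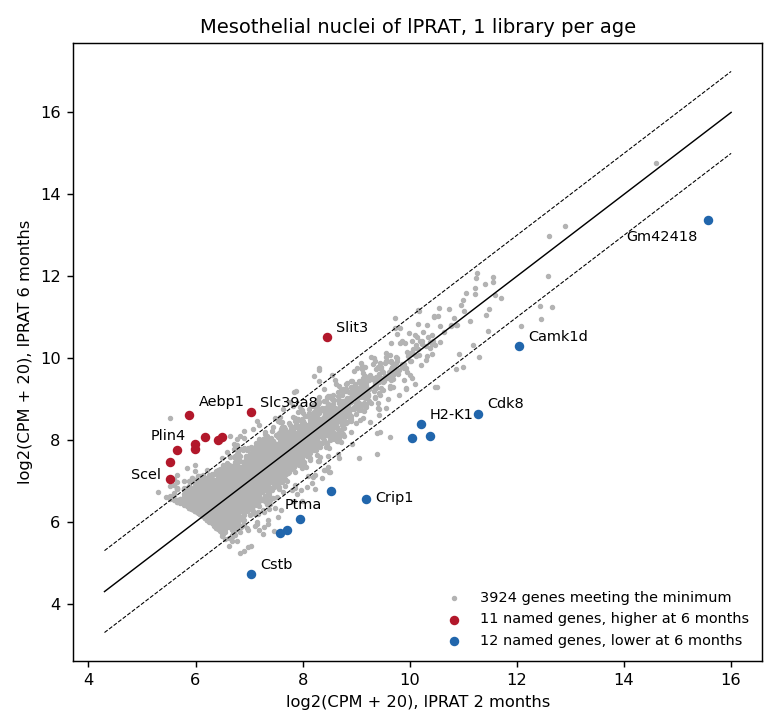
Level of 3924 genes in mesothelial nuclei of lPRAT as log2(CPM + 20), at 2 months on the x axis and 6 months on the y axis, 1 library each. The solid line marks equal levels, dashed lines mark 2-fold, red and blue points are 11 higher and 12 lower named genes, and Slit3 and Aebp1 lie far above the dashed line while Cdk8 and Gm42418 lie below it.

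Aebp1, which encodes a secreted collagen-binding matrix protein, stood at 39.2 CPM at 2 months (23.2 to 61.9) and 373 CPM at 6 months (351 to 397), a log2 ratio of 2.73. The intervals did not overlap. After thinning, Aebp1 was seen in 5 of 125 members (4.00%) at 2 months and 276 of 840 (32.9%) at 6 months, and unthinned in 9.49% and 54.9%. In adipocyte nuclei at 6 months the thinned share was 0.683%, with a median depth of 6673 UMIs against 2238 in members. In progenitor nuclei it stood at 36.2 and 181 CPM, a log2 ratio of 1.84, and in all other kept nuclei at 12.7 and 28.3 CPM.

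Fmo2, a flavin-containing monooxygenase best known from lung, lies at chr1:162874317-162898726 (GRCm38) on the minus strand. It stood at 296 CPM at 2 months (248 to 350) and 842 CPM at 6 months (808 to 876), a log2 ratio of 1.45, and the intervals did not overlap. Without members over 10000 UMIs the log2 ratio was 1.14. At 6 months Fmo2 stood at 6.34 CPM in adipocyte nuclei and 51.7 CPM in progenitor nuclei, below its level in members.

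Slit3, a secreted ligand of Robo guidance receptors, stood at 329 CPM at 2 months (278 to 385) and 1437 CPM at 6 months (1393 to 1481), a log2 ratio of 2.06. The thinned share of members with a UMI was 28.0% against 53.0%. Adipocyte nuclei held 2530 CPM at both ages, and progenitor nuclei 4171 and 7589 CPM, so Slit3 was lower in members than in either comparator. The paralog Slit2 stood at 43.5 and 49.2 CPM in members, with overlapping intervals. Robo1 stood at 100 CPM at 2 months, 18 of its 46 UMIs in 1 nucleus, and at 19.0 CPM at 6 months, and Robo2 had 0 UMIs at both ages.

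The windows before the starts of Fmo2 and Aebp1 are shown because both genes stood higher at 6 months in members and, at that age, higher in members than in adipocyte and progenitor nuclei. At 2 months Aebp1 did not stand apart from progenitor nuclei, at 39.2 against 36.2 CPM. Capitals mark the letters of a GATA motif (AGATAA on either strand, in 9.99% of all windows). The coordinates on GRCm38.p6 are chr1:162898759-162899008 on the minus strand for the first of the Fmo2 starts and chr11:5861616-5861865 on the plus strand for Aebp1.

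Fmo2: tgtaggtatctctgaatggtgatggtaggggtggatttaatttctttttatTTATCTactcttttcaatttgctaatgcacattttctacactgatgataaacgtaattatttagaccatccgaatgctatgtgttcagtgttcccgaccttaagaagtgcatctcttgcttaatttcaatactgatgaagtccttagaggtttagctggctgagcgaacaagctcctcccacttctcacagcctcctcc
Aebp1: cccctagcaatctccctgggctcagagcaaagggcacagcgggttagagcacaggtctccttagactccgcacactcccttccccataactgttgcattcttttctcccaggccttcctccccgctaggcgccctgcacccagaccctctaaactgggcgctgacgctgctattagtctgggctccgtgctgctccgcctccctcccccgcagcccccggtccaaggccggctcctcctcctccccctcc

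The Fmo2 window shown held 1 GATA match, the window of the other Fmo2 start (chr1:162898494-162898743) held 0, and Aebp1 held 0. None of these windows held the TEAD letters or a GC box (GGGCGG, in 32.7% of all windows). These matches describe the windows only.

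Some of the other named genes higher at 6 months were also higher in other nuclei of the library. Slc39a8, a zinc and manganese importer, stood at 111 and 389 CPM (log2 ratio 1.64), against 11.1 and 8.09 CPM in all other kept nuclei. Scel, which encodes the cornified envelope protein sciellin, stood at 26.1 and 112 CPM (1.52). Chrdl1, an antagonist of bone morphogenetic proteins, stood at 69.6 and 248 CPM (1.58), and in adipocyte nuclei at 212 and 361 CPM (0.72). The lincRNAs Gm29266 and Gm12840 stood at 30.5 and 195 CPM and at 52.2 and 250 CPM. Gm14964, annotated as antisense, stood at 26.1 and 155 CPM, and without a statement on strand its reads cannot be told apart from those of the gene opposite. In progenitor nuclei Gm14964 stood at 0 and 24.6 CPM (1.16). Plin4, a lipid droplet coat gene, had a log2 ratio of 1.92 in members and 2.33 in adipocyte nuclei. Car3, a carbonic anhydrase abundant in adipocytes, had 1.80 and 1.64. AC149090.1 had 1.58 in members and 1.99 in adipocyte nuclei. Plin4, Car3 and AC149090.1 were the 3 of 12 named genes that were also at least 2-fold higher in all other kept nuclei. The share of all genes past 2-fold in those nuclei was not counted.

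**Figure D4:**
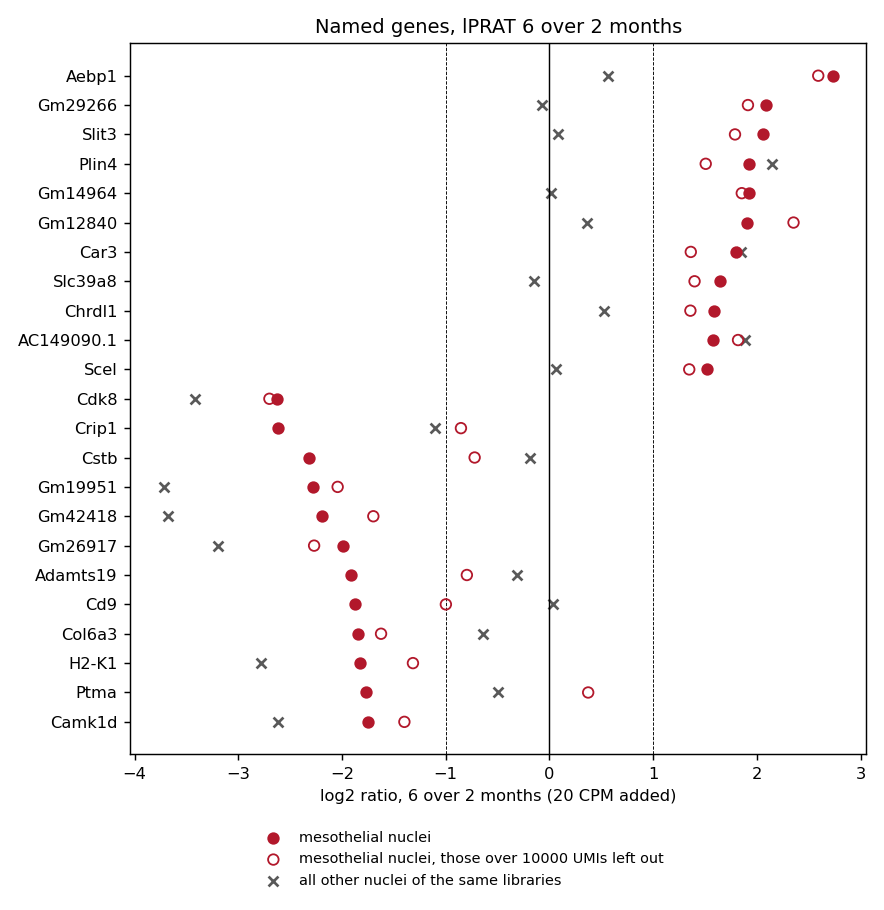
Log2 ratio of 6 over 2 months (x axis, 20 CPM added) for 23 named genes in mesothelial nuclei of lPRAT (filled), in the same nuclei without those over 10000 UMIs (open), and in all other nuclei (crosses). Aebp1 and Slit3 sit at 2.73 and 2.06 with crosses at 0.56 and 0.08, while Cdk8, H2-K1 and Camk1d have crosses further left than their points.

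Many of the named genes lower at 6 months were also lower in the rest of the library. Cdk8, a Mediator kinase, stood at 2454 CPM at 2 months and 380 CPM at 6 months, a log2 ratio of -2.63, and the ratio in all other kept nuclei was -3.42. Camk1d, a calcium-dependent kinase, had -1.75 in members and -2.62 in other nuclei. H2-K1, a class I histocompatibility gene, had -1.83 and -2.78, and the related genes B2m and H2-D1 had -1.56 and -1.30 in members, with 46.2% and 36.7% of their UMIs at 2 months in 1 nucleus. Without members over 10000 UMIs, H2-K1, B2m and H2-D1 had -1.32, -0.48 and -0.55, so B2m and H2-D1 were no longer past 2-fold. The lincRNAs Gm42418, Gm26917 and Gm19951 had -2.19, -1.99 and -2.28 in members and -3.68, -3.20 and -3.72 in other nuclei. Gm42418, often taken to reflect ribosomal RNA, held 4.87% of member UMIs at 2 months and 1.06% at 6 months, against 7.48% and 0.582% in other nuclei. Mitochondrial UMIs made up 3.13% and 1.26% of member UMIs, and 2.43% and 0.428% in other nuclei. Of the 12 named lower genes, 7 were also at least 2-fold lower in all other kept nuclei. The share of all genes past 2-fold in those nuclei was not counted, so this is a description of the named genes only.

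A single nucleus with 31109 UMIs, 6.77% of all member UMIs at 2 months, was the top contributor to 7 of the 12 lower genes. It held 185 of the 259 UMIs of Crip1, a LIM-domain gene, at 2 months, 41 of the 51 UMIs of Cstb, a protease inhibitor gene, and 114 of the 161 UMIs of Ptma, which encodes prothymosin alpha. Without members over 10000 UMIs, the log2 ratios of Crip1, Cstb and Ptma were -0.85, -0.72 and 0.37, in place of -2.62, -2.31 and -1.77. Adamts19 and Cd9 moved from -1.91 and -1.87 to -0.80 and -0.998, and Col6a3, a collagen VI chain, from -1.85 to -1.62.

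Complement and immune genes stood higher at 6 months as a list. Of 26 genes, 11 met the minimum, and 11 of 11 had a log2 ratio above 0, with a median of 0.49 against 0.03 over all 3924 genes. The median of the same genes was 0.49 in progenitor nuclei, -0.16 in adipocyte nuclei and -0.12 in all other kept nuclei. Of the 11 genes, 2 were past 2-fold higher, against 1.89% of all genes, among them C4b, a complement component C4 gene, at 26.1 and 78.8 CPM. C3, the central complement component, stood at 374 and 643 CPM, and without members over 10000 UMIs at 169 and 668 CPM. Il18 and Il33, both cytokines of the interleukin-1 family, stood at 74.0 and 137 CPM and at 176 and 256 CPM. Without the deepest members, 10 of the 11 ratios were above 0 and the median was 0.65. Across the alternatives in processing, the list median ran from 0.11 to 0.86. Progenitor markers had a similar median in the same members, 0.40 over 6 genes and 0.60 without the deepest members. Of these 6, Fmo2 was past 2-fold higher, and Cd34 and Gsn were past 2-fold lower at -1.10 and -1.32, and at -0.29 and -1.22 without the deepest members.

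Genes of mesenchymal transition and fibrosis mostly stood lower with all members, and the size of this depended on the setting. Of 12 genes that met the minimum, 10 had a ratio below 0, with a median of -0.32 against 0.03 over all genes. The median of the same genes was -0.39 in all other kept nuclei, -0.46 in adipocyte nuclei and 0.16 in progenitor nuclei. In members, 2 genes were past 2-fold lower, against 1.83% of all genes. These were Fn1, which encodes fibronectin, at 250 and 96.4 CPM, and Col1a1 at 174 and 58.7 CPM. Of the Fn1 UMIs at 2 months, 73.0% came from 1 nucleus. Without members over 10000 UMIs, Fn1 stood at 48.0 and 43.2 CPM and Col1a1 at 119 and 59.2 CPM, so neither was past 2-fold. Tgfb3, a growth factor of the TGF-beta family, then had a log2 ratio of -1.04, beside -0.94 with all members. Of the 12 ratios, 6 were below 0 in that setting, with a median of -0.03. With members thinned to 1000 UMIs each, the list median was -0.19, against -0.0034 over all genes. With a mitochondrial limit of 5% it was -0.42, against -0.0031. Col3a1, a fibrillar collagen, stood at 1266 and 1776 CPM. Twist2, Snai1 and Acta2 did not meet the minimum.

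The other lists had medians on both sides of the median of all genes. Among 16 mesothelial genes outside the rule, 7 ratios were above 0 and 9 below, with 1 past 2-fold in each direction, against 1.89% of all genes higher and 1.83% lower. Fgf9 stood at 84.9 and 199 CPM (log2 ratio 1.06), and Lgals7 at 157 and 34.8 CPM (-1.69), with 55.6% of its UMIs at 2 months in 1 nucleus. Without members over 10000 UMIs, 10 ratios were above 0 and 6 below, none past 2-fold, with Fgf9 at 0.84 and Lgals7 at -0.40. The list medians were -0.06 for coelomic transcription factors, 0.12 for cell junctions, -0.13 for basement membrane, 0.04 for Wnt, BMP, FGF and IGF signals and -0.04 for steroid response. In the same order they were -0.04, 0.09, 0.04, -0.02 and -0.19 without the deepest members, against 0.0027 over all genes, so the sign turned for basement membrane and for the signal list, and 7 of 8 steroid response genes were below 0. The retinoid pathway and the ageing and arrest lists, with 4 genes each, had -0.25 and -0.27, and -0.07 and -0.05 without the deepest members. In the junction list, Cgn, which encodes cingulin, stood at 47.9 and 107 CPM. In the glycocalyx list, Gpc6, a glypican, stood at 89.2 and 240 CPM, with 56.1% of its UMIs at 2 months in 1 nucleus, and at 50.8 and 251 CPM without members over 10000 UMIs (log2 ratio 1.93). Kdr, which encodes a receptor of vascular endothelial growth factor, stood at 28.3 and 98.8 CPM, while the endothelial marker Pecam1 did not meet the minimum. Osmr, the receptor of oncostatin M, stood at 19.6 and 85.5 CPM, but its log2 ratio in progenitor nuclei was 1.48 beside 1.41 in members. Cell division genes were low at both ages, with 0 of 8 meeting the minimum.

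The 15 genes furthest above both comparators differed in their age ratio. Nlgn1, a synaptic adhesion gene, stood at 1919 CPM at 2 months (1795 to 2050) and 1078 CPM at 6 months (1040 to 1117). Kcnd2 stood at 1408 CPM (1301 to 1521) and 604 CPM (576 to 634), a log2 ratio of -1.19, and -1.27 without the deepest members. In all other kept nuclei, which include those just outside the rule, Kcnd2 stood at 59.6 and 7.56 CPM. Adipocyte nuclei held 6.62 and 1.42 CPM and progenitor nuclei 8.04 and 2.46 CPM, the latter from 2 UMIs at each age. Abcb1b, a drug efflux transporter gene, stood at 298 and 812 CPM, a log2 ratio of 1.39. Of the others, Il1rapl1, Pkhd1l1, Rapgef5, Kcnab1, Gpm6a, Plxna4, Nxph1 and Rbfox1 had 0.73, 0.68, 0.66, 0.57, 0.50, 0.47, 0.33 and 0.32. Myo5b, Ano1, Cobl and Pcdh15 lay between -0.01 and 0.17. Gpm6a had 0.22 without the deepest members.

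The 974 members of lPRAT at 6 months were divided further by clustering, as a description. The first cluster held 348 nuclei (35.7%) and was led by Gabrb1, Slit3, Fn1 and Sorcs1. The second held 247 nuclei (25.4%), had a median of 1169 UMIs, and was led by Gm42418, AY036118 and Lars2. The third held 379 nuclei (38.9%) with a median of 2995 UMIs and was led by Cmah, Col14a1, Nrg4 and Thsd4. Slit3 stood at 2595, 1176 and 687 CPM in the 3 clusters in that order. Fmo2 stood at 457, 360 and 1246 CPM. Aebp1 stood at 329, 539 and 359 CPM. In each of the 3 clusters Fmo2, Aebp1 and Slit3 stood above the pooled level at 2 months. The clusters are parts of 1 library, with Slit3 and Fmo2 among their leading genes, and members at 2 months were not clustered. Their agreement is therefore no independent check on the age difference.

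In mPRAT, mesothelial nuclei without a urothelial UMI shared some of these levels with lPRAT and not others. Gpm6a ran from 3012 to 4585 CPM in the 4 mPRAT libraries. Slit3 stood at 116 CPM at 1 month, 161 CPM at 2 months, 253 CPM at 6 months and 139 CPM after cold, all below the 1439 CPM of lPRAT at 6 months. Fmo2 stood at 2844, 1369, 796 and 2115 CPM in that order, so the lPRAT value of 840 CPM at 6 months was within the mPRAT range. Aebp1 stood at 200, 132, 157 and 359 CPM, against 41.3 and 374 CPM in lPRAT at 2 and 6 months. Slc39a8 stood at 193, 356, 353 and 229 CPM, between the 117 and 392 CPM of lPRAT at 2 and 6 months. C3 stood at 208, 288, 419 and 1053 CPM, against 395 and 644 CPM in lPRAT. These libraries held 34, 48, 75 and 33 such members.

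**Figure D5:**
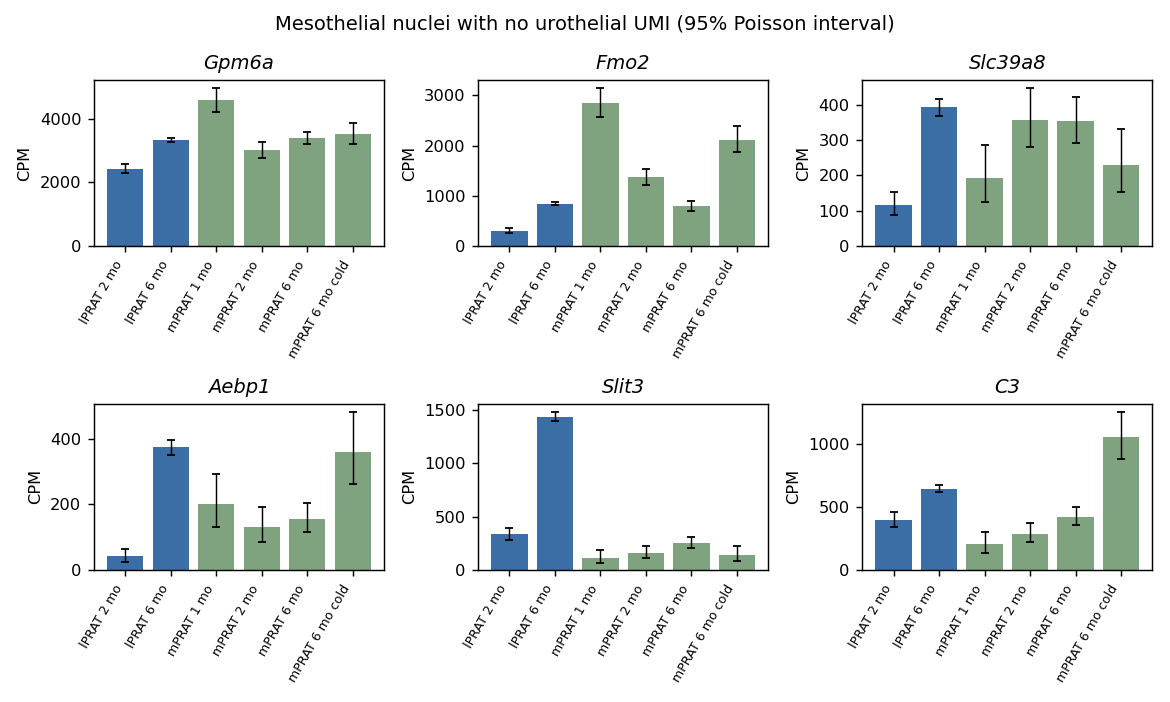
Level in CPM (y axis, exact 95% Poisson interval as error bars) of 6 genes in mesothelial nuclei with no urothelial UMI, in 2 lPRAT libraries (blue) and 4 mPRAT libraries (green). Slit3 is high in lPRAT at 6 months, at 1439 CPM, while Fmo2 is highest in mPRAT at 1 month, at 2844 CPM.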

How the data were processed

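Single-nucleus RNA libraries from 12 groups, 1 library each, were analysed. Each deposited matrix gives whole-number UMI counts for 32285 gene identifiers by barcode, which the authors had not normalized. Per the submitters' processing notes, Cell Ranger 7.0.0 and build mm10 were used; intron and strand settings are not given in the sources used here. The members, lists and tests were chosen with earlier results of these data known.

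Counts were summed over the members of a library and given as CPM (counts per 1000000 UMIs). Ratios had 20 CPM added. No test was made between groups, because each group held 1 library. Intervals are exact: Poisson for levels, Clopper-Pearson for shares and conditional binomial for ratios, all at 95%. For the difference of shares they were combined by Newcombe's method. Intervals and limits (3 counts for a count of 0) cover counting error only. The calculations were tested on simulated data. The genes named are the 12 with the highest and the 12 with the lowest ratio among those whose interval excluded 1, with mitochondrial, ribosomal protein, Xist, Y-linked and rule genes left out, plus the 15 furthest above both comparators, and genes of 26 lists. Some items that this rule takes in are not reported here. Fmo2, Slit, Robo, Osmr, Neat1, Malat1 and class I genes were added after their values were seen, as was leaving out members over 10000 UMIs or with a urothelial UMI and choosing nuclei by 7 genes outside the rule. Scrublet scores and Leiden clusters came from scanpy 1.11.5 in Python 3.11.15, with numpy 2.4.6, scipy 1.17.1 and pandas 2.3.3. Positions are from GENCODE M21 and promoters from RefSeq (GRCm38.p6), with 7 of 11 genes looked up found.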

Additional observations from a re-analysis of the deposited data

Results flagged for a closer look

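Nuclei over the 10% mitochondrial limit, which entered no comparison, also met the mesothelial rule in the perirenal libraries. There were 82 such nuclei in lPRAT at 2 months (9.20% of those over the limit) and 57 in lPRAT at 6 months (17.1%). In mPRAT there were 12 at 1 month, 80 at 2 months, 9 at 6 months and 404 at 6 months after cold. Without nuclei with a urothelial UMI these were 1, 18, 3 and 37, against 80 and 51 in lPRAT at 2 and 6 months. In the iBAT and iWAT libraries there were 0. The order of the lPRAT ages was the same among these nuclei as among kept nuclei. In mPRAT after cold, 66.0% of nuclei with enough genes lay over the limit, and 367 of the 404 held a urothelial UMI.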

How the results depend on the processing

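The share of members in lPRAT at 2 months was 4.10% with a mitochondrial limit of 5%, 5.76% with none, 6.58% with at least 500 genes, 6.56% with at least 2 rule UMIs, 2.84% with at least 5 and 5.93% after thinning. At 6 months it was 17.5% with at least 2 rule UMIs, 13.4% with at least 5, 13% after thinning and 13.01% with 7 genes outside the rule. The difference was 10.2 points with at least 500 genes, 7.07 after thinning and 8.31 with the outside genes, higher at 6 months in each. The choice by outside genes set no condition on Epcam, Upk3a or genes of other cell types. Genes past 2-fold higher numbered 139 after thinning, 113 with 5 CPM added, 34 with 50 CPM added and 141 with no minimum, and lower genes 113 with no minimum. Ptma reversed to 0.37 without members over 10000 UMIs, 0.0489 after thinning and 0.0443 as a mean of nuclei; the cause was not tested. Of the named genes, 11 of 12 higher and 7 of 12 lower stayed past 2-fold under all 16 alternatives. Scel (0.96 after thinning) was the higher exception. Alternatives that changed only the minimum, to 50 UMIs or to 1 UMI, could not change the ratio of a gene. Of 201 list medians under alternatives, 51 moved by over 0.1. No paired analysis was possible because each group held 1 library. Depth limits low genes most at 2 months, where 1 UMI was 2.18 CPM and a count of 0 allows 6.53 CPM.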

Other observations

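Neat1, a nuclear long noncoding RNA, stood at 1114 CPM in mesothelial nuclei of lPRAT at 2 months and 2292 CPM at 6 months, and at 3180 and 5383 CPM in all other kept nuclei. Malat1 stood at 24768 and 27963 CPM in members. A set of 7 mesothelial genes outside the rule (Gpm6a, Rspo1, Nkain4, Krt19, Krt7, Cldn15 and Aldh1a2) picked 154 nuclei in lPRAT at 2 months and 776 at 6 months, of which 102 (66.2%) and 676 (87.1%) were members. They made up 64.6% and 69.4% of the members. In mPRAT at 2 months and after cold, 26.2% and 24.0% of the nuclei picked by these genes were members, those with a urothelial UMI included. Unlike the member rule, this choice set no condition on Epcam, Upk3a or genes of other cell types. In iBAT and iWAT the same genes picked 1 and 4 nuclei.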
